A study of Mus musculus with 6 samples.

Results

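The genes examined encode 10 subunits of the nucleosome remodeling and deacetylase (NuRD) complex: Chd4, Hdac1, Hdac2, Mta1, Mta2, Mbd2, Mbd3, Rbbp4, Rbbp7 and Gatad2a. They were taken by name, with every probe set that the array annotation assigns to exactly 1 gene, and all 10 were measured, by 24 of 45037 probe sets and as 10 of 18193 genes. Probe sets are groups of short probes against one transcript, and the brightest one over the 6 arrays, by mean log2 signal, leads for its gene. RNA came from livers of mouse embryos at E14.5 (embryonic day), congenic on C57BL/6 after more than 10 generations of backcrossing. There were 3 Pogz-WT (Pogz+/+) and 3 Pogz-KO (Pogz-/-) arrays, each a biological replicate of liver cells in single-cell suspension, on the Affymetrix Mouse Genome 430 2.0 array. Pogz encodes a zinc finger protein, and the knockout allele was made by Cre deletion of a loxP-flanked part of the gene, so the loss was constitutive and not limited to the liver. The comparison asks how the loss of Pogz affects gene expression in the fetal liver.

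NuRD joins a nucleosome remodeling ATPase and histone deacetylases in a single assembly. CHD4 is the ATPase, HDAC1 and HDAC2 are the deacetylases, the MTA proteins form the scaffold that holds them, RBBP4 and RBBP7 bind histones, MBD2 or MBD3 joins the deacetylase and remodeling parts, and GATAD2A bridges MBD to CHD4. In erythroid cells NuRD is known as a co-repressor of embryonic and fetal globin genes, brought to DNA by factors such as BCL11A and FOG1, and the E14.5 liver is a site of definitive erythropoiesis.

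The fetal liver suspension holds several cell types, and in such bulk samples fewer cells of a type and less RNA per cell cannot be told apart. Pogz-WT 1 stood apart from the other 5 arrays: its correlation with them over all probe sets was 0.794 to 0.81, against 0.884 to 0.906 among the others. Its ratio of 3′ to 5′ actin signal, a measure of RNA integrity and labeling, was 52.3, against 5.50 and 6.63 in the other Pogz-WT arrays and 3.72 to 4.10 in Pogz-KO. The same ratio for Gapdh was 15.3, 7.37 and 9.29 in Pogz-WT and 4.87 to 5.08 in Pogz-KO, so this ratio also separates the genotypes, and its part in the results below was not tested. Of the NuRD probe sets, 66.7% (16 of 24) were lower in Pogz-WT 1 than in each of the other 5 arrays, compared with 21.6% of all probe sets. Calls are therefore given over all 6 arrays, by a plain limma fit, and over 5 arrays without Pogz-WT 1, by limma with trend and robust variance estimates. No list gene passed the plain fit over 6 arrays, and in most cases only its value over 5 arrays is printed. Xist was high in Pogz-WT 3, Pogz-KO 1 and Pogz-KO 2, and Y-linked signal in the other 3 arrays, so both sexes were in each genotype. The brightest of 4 Pogz probe sets was not lower in Pogz-KO (log2 fold change 0.18, limma over probe sets adjusted p = 0.731). Where its probes lie relative to the deleted part is not known here, so it does not check the labels.

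Over all 6 arrays, limma called no NuRD gene at an adjusted p under 0.05, and called 0% of the 18193 genes. At an unadjusted p under 0.05, 2 of the 10 passed, Rbbp4 and Rbbp7, beside 13.1% of all genes. The methods' t-test with the same adjustment also called none of the 10, and 1 of the 18193 genes. In 4 genes the arrays of the genotypes did not overlap. All 3 Pogz-KO arrays lay above all 3 Pogz-WT arrays for Mta2 and Mbd3, an order found for 10.8% of all genes, and below them for Rbbp4 and Rbbp7, an order found for 16.3%. Over 5 arrays, Rbbp4 and Rbbp7 fell (limma adjusted p = 0.0037 and 0.0061), while 2.07% of all genes fell. Both calls need the trend and robust options as well as the removal of Pogz-WT 1: a plain limma fit of the same 5 arrays gave adjusted p of 0.332 and 0.346 and called none of the 18193 genes. No NuRD gene rose over 5 arrays, beside 2.41% of all genes. The median log2 fold change of the 10 genes was 0.056 over 6 arrays and -0.0030 over 5 arrays, beside -0.17 and -0.096 for all genes. The plot of the leading probe sets by array shows that only Rbbp4, Rbbp7, Mta2 and Mbd3 separate the genotypes.

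**Figure D1:**
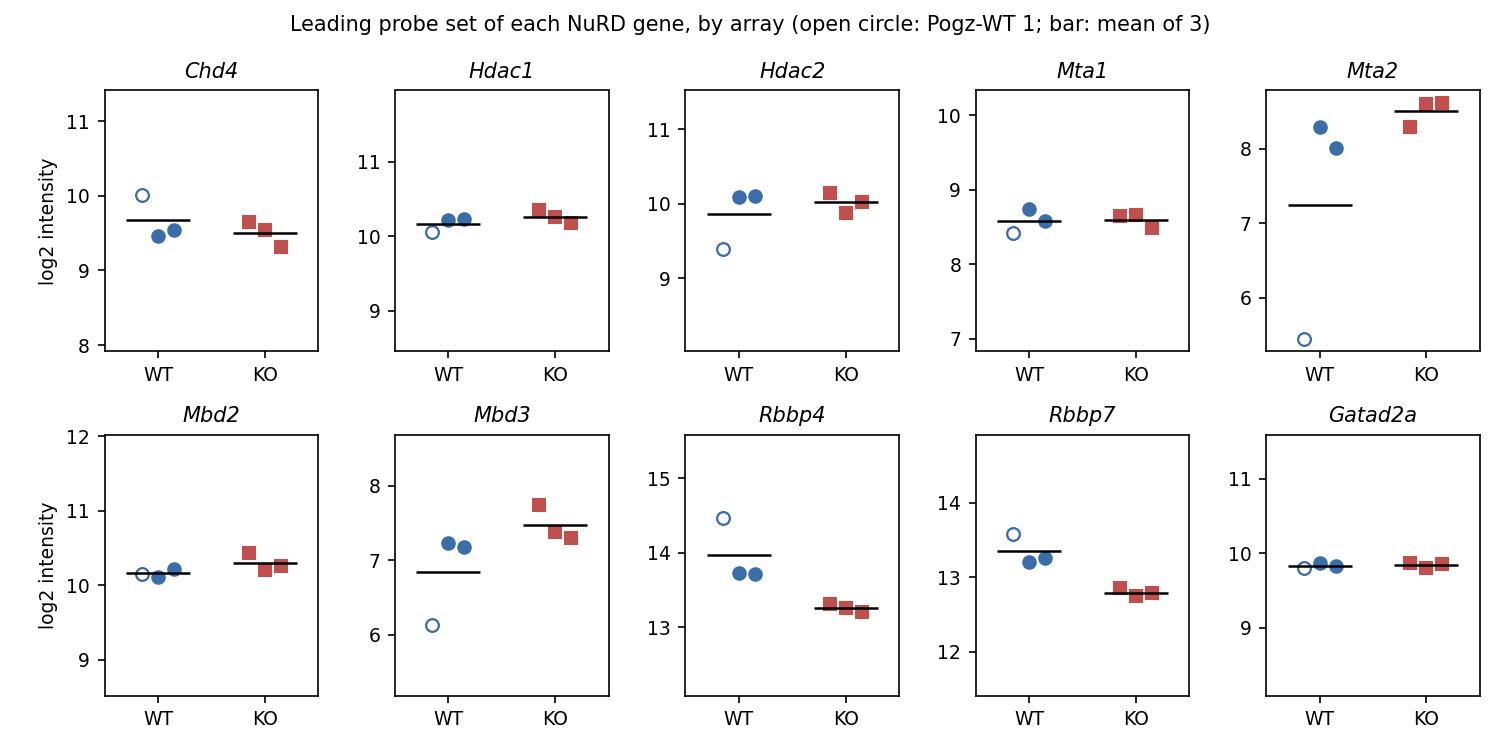
Log2 intensity of the leading probe set of each NuRD gene in 3 Pogz-WT arrays (circles, open for Pogz-WT 1) and 3 Pogz-KO arrays (squares), with the mean of each group as a bar. Every panel spans the same number of log2 units. Rbbp4 and Rbbp7 are lower in all Pogz-KO arrays, and Pogz-WT 1 lies far below the other arrays for Mta2 (5.44) and Mbd3 (6.13).

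Chd4, the remodeling ATPase, showed no difference in its leading probe set that exceeded the spread between arrays. Its log2 signal was 10.01, 9.47 and 9.55 in Pogz-WT and 9.65, 9.54 and 9.32 in Pogz-KO. The ranges overlapped, and Pogz-WT 1 was the highest array. The log2 fold change was -0.17 over 6 arrays (SE 0.24, limma adjusted p = 0.741) and -0.0050 over 5 arrays (SE 0.12, limma adjusted p = 0.991). A dimmer Chd4 probe set, 1451295_a_at, gave another picture, with 8.26, 8.45 and 9.13 in Pogz-WT and 9.16, 9.43 and 9.50 in Pogz-KO. Here every Pogz-KO array was above every Pogz-WT array, by a narrow margin between Pogz-WT 3 and Pogz-KO 1. Its log2 fold change over 5 arrays was 0.58 (95% interval 0.17 to 0.99) and was not called (limma over probe sets, adjusted p = 0.155). For the third Chd4 probe set the value was 0.24 over 5 arrays (adjusted p = 0.532).

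Neither deacetylase gene was called, and both overlapped between genotypes. Hdac1, which has a single probe set, measured 10.05, 10.22 and 10.23 in Pogz-WT and 10.36, 10.26 and 10.17 in Pogz-KO on the log2 scale. Its groups overlapped, and the log2 fold change over 5 arrays was 0.039 with a 95% interval from -0.18 to 0.26. For Hdac2 the leading probe set gave 9.39, 10.09 and 10.10 in Pogz-WT and 10.15, 9.88 and 10.02 in Pogz-KO. Only Pogz-WT 1 stood apart, below the other arrays. The log2 fold change of Hdac2 was 0.16 over 6 arrays and -0.078 over 5 arrays (95% interval -0.32 to 0.16), so its sign turned with that array. Its other probe sets were at -0.0024 and -0.090 over 5 arrays by the same measure.

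Mta1 and Mta2 encode scaffold subunits that dimerize and recruit the deacetylases. Mta1 overlapped between genotypes, at 8.42, 8.74 and 8.57 in Pogz-WT and 8.64, 8.66 and 8.49 in Pogz-KO, with a log2 fold change of 0.017 over 6 arrays and -0.063 over 5 (95% interval -0.35 to 0.23). Its second probe set was dim and spread from 1.18 to 5.49, too wide for a statement. Mta2, by its single probe set, measured 5.44, 8.29 and 8.02 in Pogz-WT and 8.30, 8.60 and 8.62 in Pogz-KO. All Pogz-KO arrays were above all Pogz-WT arrays, but Pogz-WT 2 and Pogz-KO 1 were nearly at the same level. The log2 fold change was 1.25 over 6 arrays (SE 0.79, limma adjusted p = 0.481), and without Pogz-WT 1 it was 0.35 (SE 0.16, 95% interval 0.010 to 0.69, limma adjusted p = 0.261). Most of the difference over 6 arrays thus came from Pogz-WT 1, for which the difference from the mean of the other Pogz-WT arrays was -2.71.

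MBD2 and MBD3 define alternative forms of NuRD. Mbd2, which binds methylated DNA, measured 10.15, 10.11 and 10.22 in Pogz-WT and 10.43, 10.20 and 10.26 in Pogz-KO by its leading probe set. The groups overlapped slightly, and the log2 fold change was 0.14 both over 6 arrays and over 5 (95% interval over 5 arrays -0.096 to 0.37). A dim Mbd2 probe set, 1425803_a_at, was at 4.36, 6.37 and 5.74 in Pogz-WT and 6.78, 6.69 and 6.89 in Pogz-KO. It was higher in every Pogz-KO array, with a log2 fold change of 0.73 over 5 arrays that was not called (limma over probe sets, adjusted p = 0.192). Mbd3, the paralog that lacks selective binding to methylated DNA, measured 6.13, 7.23 and 7.18 in Pogz-WT and 7.74, 7.39 and 7.31 in Pogz-KO. It did not overlap between genotypes, and its log2 fold change was 0.63 over 6 arrays (limma adjusted p = 0.453) and 0.27 over 5 (SE 0.19, limma adjusted p = 0.488).

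Rbbp4 and Rbbp7 are WD40 proteins that bind histones and also serve in other chromatin complexes. The leading Rbbp4 probe set, 1434892_x_at, measured 14.46, 13.73 and 13.72 in Pogz-WT and 13.32, 13.25 and 13.20 in Pogz-KO. All Pogz-KO arrays were lower, with a spread (SD) of 0.057 among them. Over 6 arrays the log2 fold change was -0.71 (SE 0.27, limma adjusted p = 0.371), and over 5 arrays it was -0.46 (SE 0.066, limma adjusted p = 0.0037), a fall to 0.725 of the Pogz-WT level. The leading Rbbp7 probe set, 1456227_x_at, measured 13.58, 13.21 and 13.26 in Pogz-WT and 12.85, 12.75 and 12.79 in Pogz-KO. It was again lower in every Pogz-KO array, with a log2 fold change of -0.55 over 6 arrays (SE 0.20, limma adjusted p = 0.367) and -0.44 over 5 arrays (SE 0.070, limma adjusted p = 0.0061). Rbbp7 is X-linked, and by the leading probe set Pogz-KO minus Pogz-WT was -0.46 in the females (2 arrays against 1) and -0.42 in the males without Pogz-WT 1 (1 array against 1). The other Rbbp7 probe set, 1415775_at, was higher in each sex in the same arrays, by 0.12 and 0.18. These arrays are too few for a test within a sex.

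The falls of Rbbp4 and Rbbp7 rested on a single probe set each. Both end in _x_at, which in this array design marks probes that can also match other transcripts. The second probe set of Rbbp4, 1454791_a_at, measured 7.43, 10.23 and 9.88 in Pogz-WT and 10.30, 10.67 and 10.74 in Pogz-KO, so every Pogz-KO array was higher. Its log2 fold change over 5 arrays was 0.51 (95% interval 0.19 to 0.83, limma over probe sets adjusted p = 0.105). The remaining Rbbp4 probe sets differed by 0.30 (1456260_at, adjusted p = 0.294) and 0.036 (1454875_a_at, adjusted p = 0.940). The other Rbbp7 probe set, 1415775_at, measured 11.27, 11.82 and 11.89 in Pogz-WT and 11.92, 12.11 and 12.00 in Pogz-KO. It too was higher in every Pogz-KO array, with a log2 fold change of 0.15 over 5 arrays (95% interval -0.031 to 0.34, adjusted p = 0.415). With the brightest probe set not ending in _x_at for each gene, a choice made after these values were seen, no NuRD gene was called over 5 arrays, beside 4.27% of all genes. By that choice the log2 fold changes of Rbbp4 and Rbbp7 were 0.51 and 0.15 (limma adjusted p = 0.077 and 0.36).

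The calls of Rbbp4 and Rbbp7 further depended on the scaling between arrays. After quantile normalization of the 5 arrays their log2 fold changes were -0.24 and -0.25 (limma adjusted p = 0.058 and 0.056), and no NuRD gene was called, beside 2.08% of all genes higher and 1.64% lower. Both leading probe sets belong to the 130 genes with a mean log2 signal of 13 or more. Of these 130 genes, 56.2% fell over 5 arrays and 0% rose, and their median log2 fold change was -0.34, or -0.045 after quantile normalization. Probe sets ending in _x_at with a mean log2 signal from 13 to 15 fell in 59.6% of cases (65 of 109), and other probe sets in that range in 40.8% (73 of 179). The shift at high signal thus covered most genes measured at the level of Rbbp4 and Rbbp7, and the part it has in their falls was not tested. The other 8 NuRD genes lie between 6 and 12, where the medians over 5 arrays run from -0.053 to 0.051. The plot of fold change against signal shows the 10 genes beside all genes of like signal, and how far each departs from these was not tested.

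**Figure D2:**
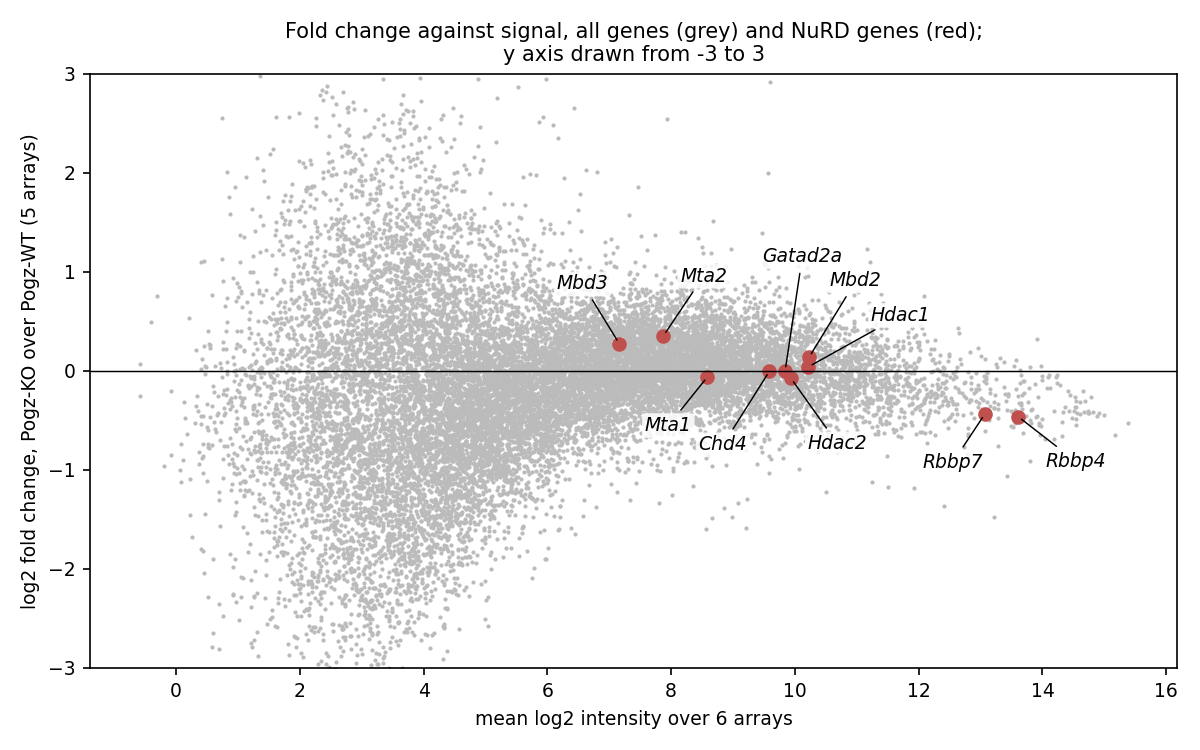
Log2 fold change over 5 arrays (y axis, Pogz-KO over Pogz-WT, without Pogz-WT 1) against the mean log2 intensity over 6 arrays (x axis) for 18193 genes in grey and the 10 NuRD genes in red. 100 genes lie outside the y axis, which ends at 3 in each direction. Rbbp4 and Rbbp7 sit at the bright end, where the median of genes at 13 or more is -0.34.

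The promoters of Rbbp4 and Rbbp7 are shown because these genes had the only calls among the NuRD subunits over 5 arrays with the deposited scaling. The RefSeq table used here held promoters (300 bases that end shortly after the start of the gene, build GRCm38.p6) for 8 of the 10 genes. Rbbp4 lies on the minus strand at chr4:129335321-129335620 and Rbbp7 on the plus strand at chrX:162760122-162760421. Capitals mark GC boxes (GGGCGG) and CCAAT boxes (CCAAT), on either strand.
Rbbp4: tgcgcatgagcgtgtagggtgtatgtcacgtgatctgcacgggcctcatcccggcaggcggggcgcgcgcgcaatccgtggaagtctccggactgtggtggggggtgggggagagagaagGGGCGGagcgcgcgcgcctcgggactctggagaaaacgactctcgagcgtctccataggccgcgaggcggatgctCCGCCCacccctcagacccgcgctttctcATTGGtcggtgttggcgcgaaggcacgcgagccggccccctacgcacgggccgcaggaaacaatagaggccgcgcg
Rbbp7: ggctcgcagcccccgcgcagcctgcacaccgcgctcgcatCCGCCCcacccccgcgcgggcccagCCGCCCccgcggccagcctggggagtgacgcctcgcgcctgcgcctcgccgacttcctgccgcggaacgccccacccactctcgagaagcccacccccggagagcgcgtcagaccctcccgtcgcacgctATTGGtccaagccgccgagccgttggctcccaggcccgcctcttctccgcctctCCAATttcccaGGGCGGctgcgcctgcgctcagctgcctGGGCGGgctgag
The Rbbp4 promoter held 2 GC boxes and 1 CCAAT box, and the Rbbp7 promoter 4 and 2. GC boxes were in the promoters of 8 of 8 NuRD genes and in 35.7% of 32851 promoters, and CCAAT boxes in those of 5 of 8 genes and in 37.4% of all. There were 39 CpG dinucleotides in the Rbbp4 window and 38 in that of Rbbp7, against a median of 7 over all promoters. Neither window held AGATAA, the GATA motif, which 11.2% of promoters hold, nor GGCGGGAA, an E2F motif that 2.19% hold. These matches describe the sequence only. Rbbp4 and Hdac1 are neighbors on chromosome 4, with 7 protein-coding genes between them, and Hdac1 was not called.

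Gatad2a, the bridge between MBD proteins and CHD4, had the smallest spread among the 10 genes (SD 0.030 in Pogz-WT and 0.036 in Pogz-KO, n = 3 each). Its leading probe set measured 9.81, 9.87 and 9.84 in Pogz-WT and 9.88, 9.81 and 9.86 in Pogz-KO. The groups overlapped, and the log2 fold change over 6 arrays was 0.014 (95% interval -0.42 to 0.45), and over 5 arrays -0.0010 (95% interval -0.22 to 0.22). A second probe set, 1423992_at, was higher in every Pogz-KO array, at 9.54, 9.51 and 9.50 against 8.76, 9.33 and 9.08 in Pogz-WT, with a log2 fold change of 0.31 over 5 arrays (95% interval 0.049 to 0.57, limma over probe sets adjusted p = 0.236). The remaining 3 ranged from -0.18 to 0.23 over 5 arrays.

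Among the 24 probe sets, 14 were higher and 10 lower in Pogz-KO over 5 arrays, and 4 of the 7 genes with several probe sets had probe sets in both directions. No probe set rose over 5 arrays, beside 1.45% of all probe sets, and 2 fell, those of Rbbp4 and Rbbp7, beside 1.22%. In 8 of 24 the Pogz-KO arrays were all above the Pogz-WT arrays, an order seen for 9.1% of all probe sets, and in 2 of 24 all below, seen for 15.8%. The 8 were 1451295_a_at of Chd4, the single probe sets of Mta2 and Mbd3, 1425803_a_at of Mbd2, 1454791_a_at and 1456260_at of Rbbp4, 1415775_at of Rbbp7 and 1423992_at of Gatad2a. None of them led for a gene with several probe sets. In 7 of the 8, all but 1456260_at, Pogz-WT 1 was also below the other Pogz-WT arrays. Centring each array on its median moved the median of all genes from -0.096 to 0.18 over 5 arrays and called 7 NuRD probe sets higher, beside 6.14% of all probe sets. By leading probe sets, Mta2 alone was then called (log2 fold change 0.62, limma adjusted p = 0.024), beside 10.1% of all genes higher and 0.55% lower.

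**Figure D3:**
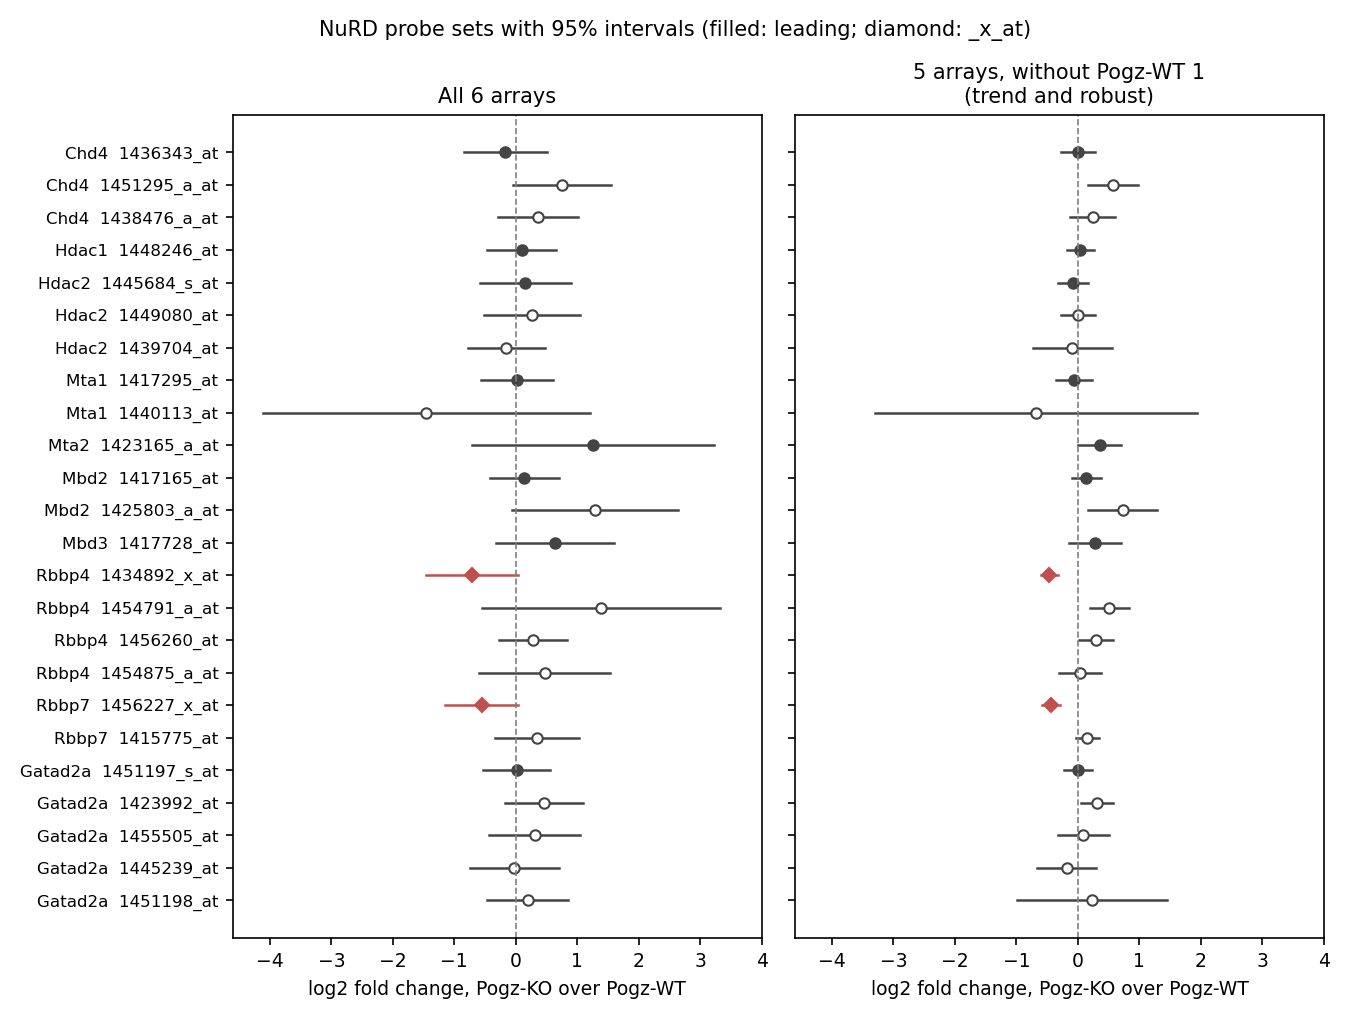
Log2 fold change (Pogz-KO over Pogz-WT) of the 24 NuRD probe sets with 95% intervals from limma, over 6 arrays (left) and over 5 arrays without Pogz-WT 1 (right), on the same axis. Filled symbols lead for their gene, and diamonds end in _x_at. The 2 diamonds, of Rbbp4 and Rbbp7, lie below 0 while the other probe sets of the same genes lie above 0.

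Paralogous subunits can take the same place in the complex, so the log2 ratio of their leading probe sets was compared within arrays, for 7 pairs. This ratio does not depend on the scale factor of an array. With 3 arrays against 3, the exact two-sided permutation test cannot go below p = 0.1. The log2 ratio of Mta1 to Mta2 was 2.98, 0.45 and 0.56 in Pogz-WT and 0.35, 0.061 and -0.13 in Pogz-KO, lower in all Pogz-KO arrays (difference -1.24, exact permutation p = 0.1, 0.467 after Benjamini-Hochberg adjustment over 7 pairs). Without Pogz-WT 1 the difference was -0.41, and that of Mbd2 to Mbd3, -0.49 over 6 arrays (exact permutation p = 0.2), was -0.14. The Hdac1 to Hdac2 ratio differed by -0.061 (exact permutation p = 1) and Rbbp4 to Rbbp7 by -0.16 (exact permutation p = 0.3). For Rbbp4 to Rbbp7 the 5 arrays other than Pogz-WT 1 ran from 0.42 to 0.52, so both leading probe sets were lower by a like amount. Against paralogs outside the 10 genes, Chd4 over Chd3 differed by 0.40, Gatad2a over Gatad2b by -0.0060 and Mta2 over Mta3 by 0.48 (exact permutation p = 0.2, 1 and 0.9), and the last was -0.35 without Pogz-WT 1. Chd4 over Chd3 was 0.17 without Pogz-KO 2 and 0.61 without Pogz-KO 3, and Gatad2a over Gatad2b ran from -0.15 to 0.090 with an array left out. With the mean of all probe sets of each gene, Chd4 over Chd3 was 0.88 and Gatad2a over Gatad2b 0.64.

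Other NuRD genes, which the list of 10 leaves out, held 2 calls. Of 9 paralogs and accessory subunits, Mta3 and Zmynd8 rose over 5 arrays and none fell, beside 2.41% of all genes higher and 2.07% lower, and the median log2 fold change was 0.089. Mta3, the third MTA scaffold gene, measured 7.50, 7.69 and 7.72 in Pogz-WT and 8.61, 8.41 and 8.21 in Pogz-KO. The groups did not overlap, with Pogz-WT 1 close to the other Pogz-WT arrays. Its log2 fold change over 5 arrays was 0.71 (SE 0.16, limma adjusted p = 0.028, and 0.046 after quantile normalization), against 0.77 over 6 arrays (limma adjusted p = 0.329). Zmynd8, a chromatin reader that associates with NuRD, measured 10.23, 10.62 and 10.43 in Pogz-WT and 11.08, 11.19 and 11.03 in Pogz-KO. All Pogz-KO arrays were higher, with a log2 fold change of 0.58 over 5 arrays (SE 0.10, limma adjusted p = 0.008, and 0.012 after quantile normalization), against 0.67 over 6 arrays (limma adjusted p = 0.331). Of 3 Mta3 probe sets 2 were higher and 1 lower over 5 arrays, and of 5 for Zmynd8 3 were higher and 2 lower. Chd3, a remodeling ATPase like Chd4, had a log2 fold change of -0.50 over 5 arrays with no overlap between genotypes and was not called (limma adjusted p = 0.288).

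Complexes that share subunits with NuRD were compared in the same fit. HDAC1 and HDAC2 also work in the CoREST complex, where 2 of 9 measured genes rose over 5 arrays and none fell, beside 2.41% of all genes higher. Zmym2, a zinc finger subunit, was at 8.52, 8.34 and 8.42 in Pogz-WT and 9.02, 9.20 and 9.35 in Pogz-KO (log2 fold change over 5 arrays 0.81, SE 0.13, limma adjusted p = 0.007, and 0.013 after quantile normalization). Kdm1a, the histone demethylase LSD1, was at 9.65, 10.14 and 10.00 in Pogz-WT and 10.51, 10.42 and 10.47 in Pogz-KO (log2 fold change over 5 arrays 0.40, limma adjusted p = 0.043, but 0.086 after quantile normalization). For both genes every Pogz-KO array was above every Pogz-WT array. In the SIN3 complex, also built on HDAC1 and HDAC2, 1 of 13 rose: Ogt, the O-GlcNAc transferase, with a log2 fold change of 0.51 (limma adjusted p = 0.038, but 0.073 after quantile normalization). After quantile normalization the calls were 1 of 9 for CoREST and 0 of 13 for SIN3. Median log2 fold changes over 5 arrays were 0.16 for CoREST and 0.17 for SIN3, beside -0.096 for all genes. Among all genes with a mean log2 signal of 8 to 10 the median was 0.051 and 7.89% rose. At 10 to 12 the median was -0.053 and 7.01% rose.

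Transcription factors that bring NuRD to DNA held 1 call among 11, beside 2.41% of all genes higher and 2.07% lower over 5 arrays, with a median log2 fold change of -0.099 over 5 arrays. Ikzf1, which encodes IKAROS, rose over 5 arrays (log2 fold change 0.44, limma adjusted p = 0.038, but 0.068 after quantile normalization). Bcl11a, the globin repressor, measured 10.60, 10.10 and 10.37 in Pogz-WT and 9.97, 9.98 and 9.86 in Pogz-KO. All Pogz-KO arrays were lower, with a log2 fold change of -0.30 over 5 arrays that was not called (95% interval -0.54 to -0.054, limma adjusted p = 0.181). Of its 7 probe sets 5 were lower and 2 higher over 5 arrays. A dimmer one, 1447334_at, fell by 0.76 (limma over probe sets, adjusted p = 0.039), while 1456632_at, at 9.79 to 9.90 in Pogz-WT and 10.03 to 10.18 in Pogz-KO, had a log2 fold change of 0.20 and was not called (adjusted p = 0.380). Zfpm1, the gene of FOG1, and Gata1, its partner, had log2 fold changes of -0.16 and -0.099 over 5 arrays (limma adjusted p = 0.378 and 0.590).

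The 6 partner genes called over 5 arrays had the same direction over 6 arrays, with plain limma adjusted p from 0.329 to 0.385 there. All 6 had a mean log2 signal between 8 and 12. In that range more genes rose than the 2.41% of all genes: 7.89% at 8 to 10 and 7.01% at 10 to 12. In the fit of 5 arrays over probe sets, the leading probe sets of Kdm1a, Ogt and Ikzf1 were not called (limma adjusted p = 0.064, 0.058 and 0.057). Both Kdm1a and both Ikzf1 probe sets were higher over 5 arrays, and of 5 for Ogt 4 were higher and 1 lower. Neither of the remaining lists held a call. Among 12 genes of other complexes that contain RBBP4 or RBBP7, Suz12 and Ezh2, core subunits of Polycomb repressive complex 2, led by the size of the moderated t over 6 arrays, with log2 fold changes of 0.28 and 0.14 over 5 arrays (limma adjusted p = 0.141 and 0.482). Among 5 other class I deacetylases and MBD proteins, the deacetylase Hdac8 and the DNA glycosylase Mbd4 led, with 1.24 and 0.24 (limma adjusted p = 0.267 and 0.459). Hdac8 was dim, at 2.07 to 5.57. The list medians over 5 arrays were -0.048 and 0.055. The plot of NuRD genes beside their partner complexes shows 2 calls below 0, both NuRD subunits, and 6 above 0, all of them outside the 10 genes.

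**Figure D4:**
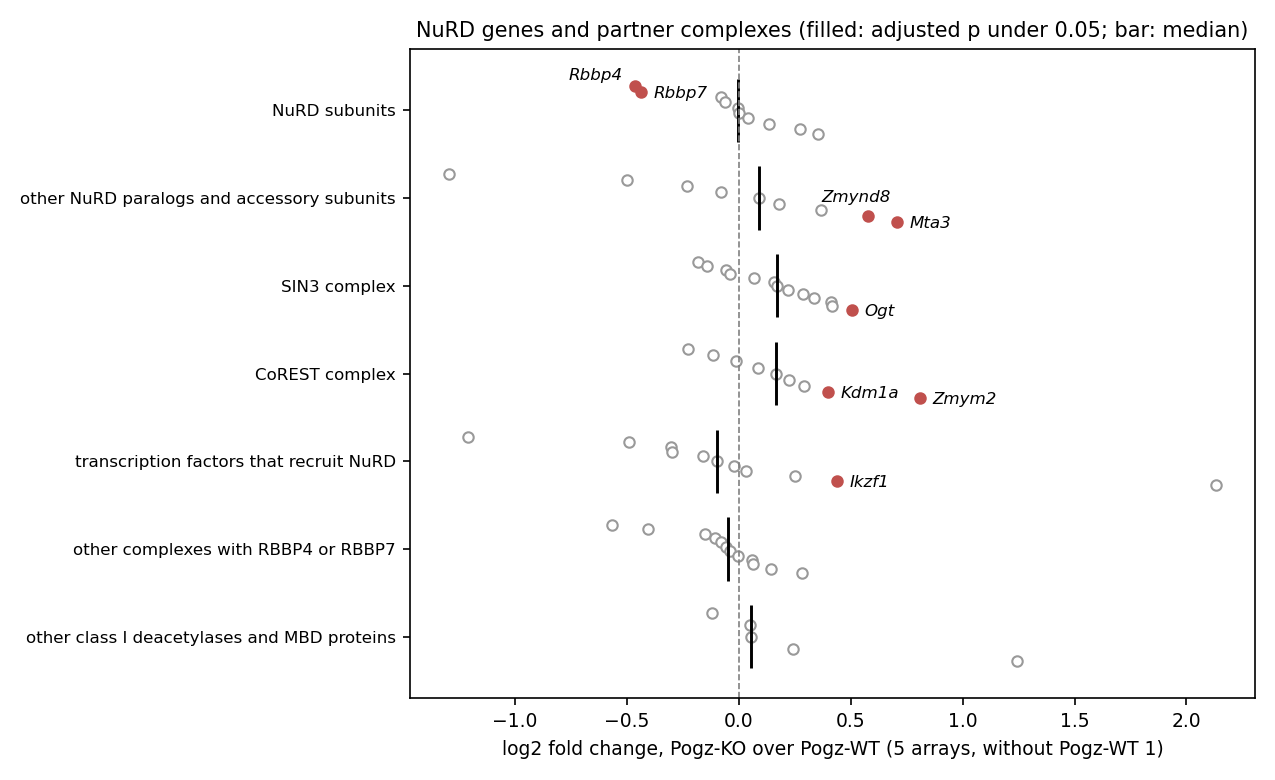
Log2 fold change over 5 arrays (x axis, Pogz-KO over Pogz-WT, without Pogz-WT 1) of the NuRD genes and of 6 lists of partner genes, 1 point a gene by its leading probe set. Filled points passed an adjusted p under 0.05 in limma, and bars are list medians. Rbbp4 and Rbbp7 lie at -0.46 and -0.44, and Zmym2 lies farthest to the right among the filled points, at 0.81.

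Markers of the liver's cell types moved in the same comparison. Calls are over 5 arrays, beside 2.41% of all genes higher and 2.07% lower, and among genes with a mean log2 signal of 12 to 13 or of 13 or more, 28.7% and 56.2% fell. All 20 marker genes called had the same direction over 6 arrays, with plain limma adjusted p from 0.253 to 0.721 there, and 12 were called after quantile normalization. Over 6 arrays with trend and robust, limma called Hbb-bh1 and Camp (adjusted p = 0.021 and 0.029), beside 22 of all 18193 genes. Red cell precursors are the main cells of the E14.5 liver, and the log2 of the summed signal of 10 measured erythroid genes was 16.16 to 16.55 in Pogz-WT and 15.67 to 15.76 in Pogz-KO. Of these genes 5 fell (Klf1, Alas2, Slc4a1, Ermap and Nfe2) and none rose, and Slc4a1 and Nfe2 were called after quantile normalization. Of 6 globin genes 3 fell (Hbb-y, Hbb-bh1 and Hbb-b2), and Hbb-bh1 alone was called after quantile normalization. The log2 of the summed signal of these globins was 15.82 to 17.01 in Pogz-WT and 15.10 to 15.36 in Pogz-KO. Hbb-y alone, by an _x_at probe set, was at 15.20 to 16.71 and 14.53 to 14.69, so it dominated the sum. After quantile normalization the Hbb-y log2 fold change over 5 arrays was -0.093. Hbb-b1, Hbb-bs and Hbb-bt were not measured as single genes.

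Cycling cell genes, among which Rbbp4 and Rbbp7 are not listed, had 5 falls of 19 (Mcm4, Mcm7, Cdk1, Rrm2 and Plk1), of which all but Mcm7 were called after quantile normalization, and sums of 16.46 to 16.60 against 16.20 to 16.22. The leading probe sets of 6 called markers ended in _x_at like those of Rbbp4 and Rbbp7: Mcm4, Rrm2, Slc4a1, Hbb-y, Hbb-b2 and Myb. The other Mcm4 probe set, 1416214_at, overlapped between genotypes. It had a log2 fold change of -0.091 over 5 arrays and was not called (limma over probe sets, adjusted p = 0.646). Of 10 early progenitor genes Kit and Myb rose and none fell, but the list's median log2 fold change was -0.17, and the sums overlapped, at 12.37 to 12.87 in Pogz-WT and 12.86 to 12.93 in Pogz-KO. Granulocyte genes Ctsg, Camp, Ltf and Lcn2 rose, 4 of 10, of which all but Ltf were called after quantile normalization, though the sums overlapped, at 15.59 to 16.38 in Pogz-WT and 15.61 to 15.81 in Pogz-KO. Afp, the fetal plasma protein, fell among 10 hepatocyte genes but was not called after quantile normalization (limma adjusted p = 0.288). The hepatocyte sums were 14.78 to 15.63 against 14.07 to 14.75, with Afp alone at 14.37 to 15.40 against 13.60 to 14.02. No gene passed among 10 macrophage genes, led by C1qb and Marco, or 10 endothelial and stromal genes, led by Col1a1 and Kdr. Their sums were 12.53 to 12.73 against 12.03 to 12.50 and 9.32 to 9.70 against 8.92 to 9.13. The part of these differences in the values of the NuRD genes was not tested.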

How the data were processed

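The authors labeled 100 ng of RNA by 3′ in vitro transcription and deposited linear probe set intensities made in Affymetrix Expression Console, whose algorithm and version the sources used here do not state. The deposited intensities have a 2% trimmed mean of 149.9 in each array and medians from 29.7 to 54.3. The number of arrays limits the precision, and whether embryos shared a litter is not given.

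Log2 was taken with no pseudocount. After 64 control probe sets were left out, 45037 were tested, of which 34945 name 1 gene, 932 several and 9160 none here. Genes were represented by their brightest probe set. limma 3.58.1 in R 4.3.3 was used (lmFit and eBayes with genotype as the factor, and p-values adjusted by Benjamini-Hochberg over all genes or probe sets). Calculations were tested on simulated data. "5 arrays" means without Pogz-WT 1, with trend and robust; this leaves 2 Pogz-WT arrays. Paralog ratios were compared by exact permutation.

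The members, lists (NuRD paralogs and accessory subunits, SIN3, CoREST, RBBP4 or RBBP7 complexes, recruiting factors, class I deacetylases and MBD proteins, globins, cycling, erythroid, progenitor, hepatocyte, macrophage, granulocyte, endothelial and sex genes) and tests were chosen with earlier results of these data known. Named are the 10 members, list genes that passed over 6 or 5 arrays, otherwise the 2 with the largest moderated t over 6 arrays, paralog partners, and Pogz. Bcl11a, Zfpm1 and Gata1 were named after their values were seen. Alternatives were median centring, quantile normalization, leaving out dim probe sets, limma's trend and robust options, a replicate block and each array left out. Further ones were a Y-linked covariate, an unpaired t-test, other thresholds and the mean of all probe sets. Choosing by probe set suffix was added after seeing the data.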

Additional observations from a re-analysis of the deposited data

How the results depend on the processing

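Over 6 arrays, 0 NuRD genes and 0 NuRD probe sets passed under every alternative run, and with each array left out in turn (0 to 0 for both). At an adjusted p under 0.05, these runs also called 0 of all genes, but 1 by the t-test and 22 with trend and robust. Without Pogz-WT 1 and with trend and robust, 2 genes and 2 probe sets passed, after quantile normalization 0 and 0, and after median centring 1 gene and 7 probe sets. Genes whose arrays do not overlap numbered 4, and 4 to 5 with an array left out, but 8 after median centring and 9 after median centring of 5 arrays. Over all genes this was counted only for 6 arrays without centring, at 10.8% above and 16.3% below. The other counts have no like share beside them, so they are not read as a result about NuRD. The median log2 fold change of the NuRD genes, 0.056, was -0.0030 to 0.11 with an array left out, -0.025 after quantile normalization, 0.52 after median centring, 0.25 with the mean of all probe sets, 0.15 without _x_at probe sets, and over 5 arrays -0.054 after quantile normalization and 0.27 after median centring. Median centring moved the median of all genes from -0.17 to 0.29 over 6 arrays and from -0.096 to 0.18 over 5.

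Single genes turned sign as follows, none of them called. Quantile normalization gave -0.091 for Mta1 and -0.074 for Gatad2a, and over 5 arrays -0.13 for Hdac2, -0.13 for Mta1 and -0.053 for Gatad2a. Median centring gave 0.29 for Chd4, and 0.27 over 5 arrays. The Y-linked covariate gave -0.016 for Mta1. The mean of all probe sets gave 0.31 for Chd4, -0.72 for Mta1 and 0.36 for Rbbp4. Without Pogz-WT 1, in either fit and also without _x_at probe sets, Hdac2 was -0.078, Mta1 -0.063 and Gatad2a -0.0010. With each array left out in turn, Hdac2 ran from -0.078 to 0.28, Mta1 from -0.063 to 0.098 and Gatad2a from -0.0010 to 0.034. Without _x_at probe sets Rbbp4 and Rbbp7 were 1.39 and 0.35 over 6 arrays, and 0.51 and 0.15 over 5.

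The Hdac1 to Hdac2 ratio difference ran from -0.15 to 0.12 with an array left out and was 0.0051 with the mean of all probe sets, which gave 0.085 for Mbd2 to Mbd3 and 0.46 for Rbbp4 to Rbbp7.

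The replicate block left 0 NuRD genes called, with the smallest adjusted p at 0.446. Deviations of same-numbered arrays correlated at 0.0041, -0.0088 and -0.013, within the range of differently numbered arrays (-0.015 to 0.024). No pairing by number was thus seen. With so few arrays and an outlying Pogz-WT array, these values cannot tell whether same-numbered embryos shared a litter. The 5-array fits rest on 2 Pogz-WT arrays, and a value that was not called at this array number is not shown to be equal.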
